A study of Homo sapiens with 9 samples.

Results

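Amino acid and monocarboxylate transporter genes of the solute carrier families SLC1, SLC3, SLC6, SLC7, SLC16, SLC36, SLC38 and SLC43 were followed in KG-1a cells. The cells had wild-type PRMT2, an arginine methyltransferase gene, or were PRMT2 knockout clones. The genes were taken by symbol from the series' table of genes, whatever their level or change, which gave 73 of 60605 gene identifiers. Of these, 37 passed the filter on low counts and were tested, among 20655 tested genes in all.

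KG-1a is an established line of immature human acute myeloid leukaemia cells grown in suspension. The series holds 9 RNA-seq libraries in 3 groups of 3: cells with wild-type PRMT2 (WT) and a pair of lines, clone 1 and clone 2, in which PRMT2 was targeted with CRISPR/Cas9. All groups were grown in RPMI 1640 with 20% fetal bovine serum and received no drug. Each knockout line is 1 clone, and no label states that the WT cells are a clone or that libraries of a group came from separate cultures, so the p-values measure the spread between these libraries, which may be technical. PRMT2 itself was at 39.4 ± 0.393 CPM (CPM are counts scaled to a common library total, here with the SD, n = 3) in WT, 20.7 ± 0.544 in clone 1 and 21.2 ± 0.153 in clone 2. Its transcript was lower by -0.93 and -0.89 on the log2 scale and did not disappear in either clone.

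Cells take up most amino acids through these carriers. Heavy chains of the SLC3 family hold SLC7 light chains in the plasma membrane, where they exchange one amino acid for another. SLC1, SLC6 and SLC38 carriers use the sodium gradient, some SLC36 carriers use protons, and SLC43 carriers let neutral amino acids move down their gradient. The SLC16 family, named for the monocarboxylates lactate and pyruvate, also holds carriers of aromatic amino acids, thyroid hormones, creatine, carnitine and ketone bodies. Leukaemic cells are known for high uptake of leucine and glutamine, and several of these genes are targets of the amino acid starvation factor ATF4.

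The libraries held between 28006342 and 43149410 read pairs counted to genes on 1 strand, so that 3 counts were worth 0.0701 to 0.110 CPM. Between 92.0% and 92.3% of the pairs counted to either strand lay on the counted strand. Clone 1 replicate 1 stood apart, with 13.3% of its pairs mapping to several places against 3.86% to 4.51% in the others and with 13440 CPM of the mitochondrial ribosomal RNA MT-RNR1 against 14.8 to 52.0. Replicates of WT and clone 2 differed beyond sampling noise (chi-square per degree of freedom 2.45 to 4.78). In clone 1 the value was 3.42 between replicates 2 and 3, and 45.0 and 44.4 for replicate 1 against replicates 2 and 3. No library was therefore counted as a repeat of another. Of 10 marker genes of KG-1a and immature blood cells 2, CD33 and FLT3, stayed under 1 CPM in every group. The 10 summed to 2539 to 2591 CPM in WT, 2633 to 2714 in clone 1 and 2576 to 2654 in clone 2. The sum does not show changes of single markers. Mean KIT was 6.16 CPM in WT, 6.95 in clone 1 and 20.0 in clone 2, and mean ERG 92.5, 143 and 114. PTPRC went the other way, at 591, 543 and 520, as did SPN, at 913, 895 and 877. All 5 epithelial markers were under 1 CPM in every group (summed 0.0783 to 0.244 CPM in WT, 0.435 to 0.522 in clone 1 and 0.117 to 0.461 in clone 2). Of 5 fibroblast markers only COL3A1 exceeded 1 CPM, and the 5 summed to 1.63 to 2.65 CPM in WT, 4.17 to 4.57 in clone 1 and 2.16 to 3.63 in clone 2. The part of these low signals in the transporter values was not tested.

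Levels between genes were compared per length, as CPM per kb of the gene's merged exons. In WT cells 14 transporter genes lay above 10 CPM per kb and 23 above 1. SLC7A5 (LAT1), the light chain that imports leucine and other large neutral amino acids, was the highest at 177 ± 5.68 CPM per kb. SLC1A5 (ASCT2), the main sodium-coupled glutamine carrier of many tumour cells, followed at 92.6 ± 1.87, and the glutamine and alanine carrier SLC38A1 (SNAT1) at 55.4 ± 0.730. SLC43A3, a nucleobase carrier despite its family name, was at 46.0 ± 1.06 and the arginine and lysine carrier SLC7A1 (CAT1) at 44.003 ± 1.03, and these neighbours in the order lay closer than the sum of their SDs. The heavy chain SLC3A2 (CD98) at 39.3 ± 0.913 and the leucine carrier SLC43A1 (LAT3) at 39.0 ± 1.51 did not differ beyond their spread. The lactate carrier SLC16A1 (MCT1) came next at 23.5 ± 0.793, followed by SLC38A2 (SNAT2) at 20.1 ± 0.459, SLC38A5 (SNAT5) at 17.7 ± 1.11, the cystine importer SLC7A11 (xCT) at 13.4 ± 0.244, the serine and alanine carrier SLC1A4 (ASCT1) at 12.2 ± 0.280, SLC7A6 (y+LAT2) at 12.004 ± 0.238 and the lactate exporter SLC16A3 (MCT4) at 10.1 ± 0.189. SLC38A10 was the fifteenth, at 9.18 ± 0.266. Summed over the 73 genes, WT cells had 3681 ± 54.5 CPM, clone 1 3305 ± 29.0 and clone 2 3431 ± 24.7 (SD, n = 3), which was 0.368%, 0.331% and 0.343% of the scaled library.

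**Figure D1:**
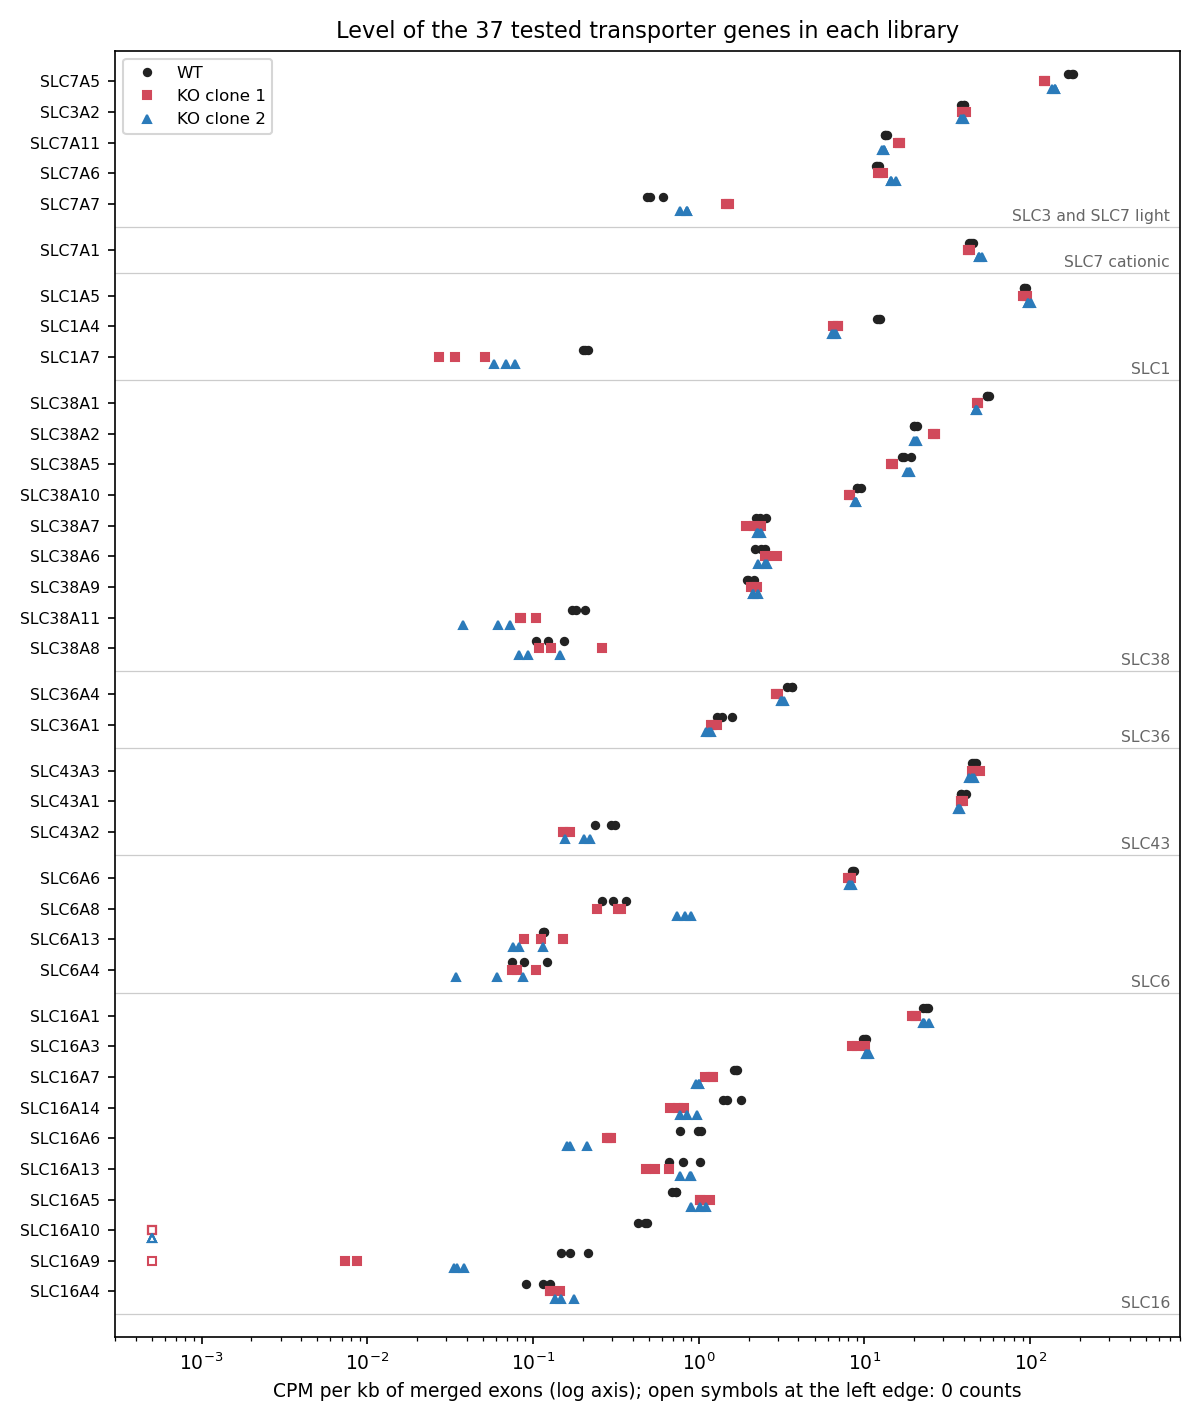
Level of the 37 tested transporter genes in each of the 9 libraries, in CPM per kb of merged exons on a log axis, grouped by family. WT libraries are circles, clone 1 squares and clone 2 triangles, and open symbols at the left edge mark libraries with 0 counts: all 6 knockout libraries for SLC16A10 and 1 clone 1 library for SLC16A9.

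A gene was called when its adjusted p in edgeR's quasi-likelihood test was under 0.05 and its log2 fold change was at least 1 in size, thresholds that the series text also names, and it is said to have passed the test when the adjusted p alone was under 0.05. Clone 1 had 6 transporter genes called lower of 37 (16.2%), beside 4.98% of all genes tested, and 1 called higher (2.7%), beside 2.6%. Clone 2 had 5 called lower (13.5%), beside 4.13%, and 1 called higher, beside 1.83%. In both clones, 5 of 37 (13.5%) were called lower, beside 3.04% of all genes, and 0 were called higher, beside 1.3%. The 5 were SLC16A10, SLC16A9, SLC16A6, SLC1A7 and SLC38A11, of which SLC16A10 and SLC16A9 passed the low-count filter through their WT counts alone. For the mean of both clones against WT, 5 were lower (4.53% of all genes) and 1 was higher (2.0%). Between the clones, 2 were higher in clone 2 (1.58% of all genes) and 0 were lower (1.23%).

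By adjusted p alone, 17 transporter genes were lower (45.9%) and 4 higher (10.8%) in clone 1, beside 18.8% and 17.4% of all genes. In clone 2 the counts were 13 lower (35.1%) and 6 higher (16.2%), beside 16.1% and 14.4%, and for the mean of both clones 16 lower (43.2%) and 6 higher, beside 18.9% and 16.4%. The median log2 fold change of the 37 was -0.14 in clone 1 and -0.05 in clone 2, where the median of all genes lay within 0.01 of 0. The comparisons of the clones share the WT libraries and are set side by side, not as independent results.

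The called genes were weakly expressed ones. All 5 that were lower in both clones lay under 1 CPM per kb in WT, where 14 tested transporter genes lay and where 5.9% of the 6140 tested genes of that level were called lower in both. Of the 9 at 1 to 10 CPM per kb, only SLC16A14 was called in either clone, and of the 14 above 10 CPM per kb 0 were, beside 5.74% and 2% of all tested genes at these levels. SLC16A10 and SLC16A9 owed their place among the tested genes to their WT counts, so their lower calls are not independent of the filter. In RNA from bulk cultures, fewer cells expressing a gene and less RNA per cell cannot be told apart.

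**Figure D2:**
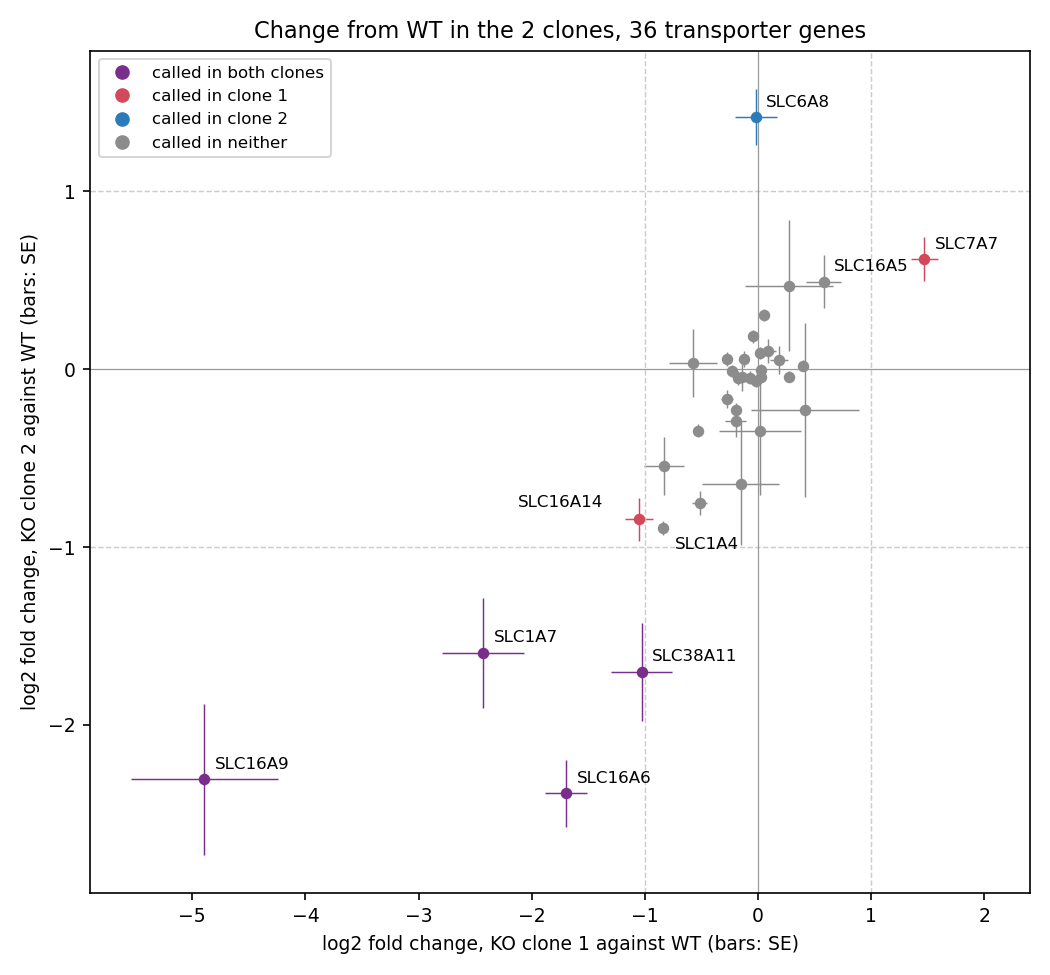
Log2 fold change against WT in clone 1 (horizontal axis) and clone 2 (vertical axis) for 36 tested transporter genes, with standard errors as bars and dashed lines at a change of 1. SLC16A10 is left out because both clones had 0 counts. SLC16A9, SLC16A6, SLC1A7 and SLC38A11 sit at the lower left, SLC7A7 at the right and SLC6A8 at the top, while most genes lie near the centre.

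The SLC16 family held 4 of the 7 genes called in clone 1 and 3 of the 6 called in clone 2, all of them lower, SLC16A10 and SLC16A9 included. Of its 14 members 10 were tested, and 8 and 5 were lower by adjusted p alone, beside 18.8% and 16.1% of all genes. Called lower were 4.98% and 4.13% of all genes. Its only member that passed the test upward was SLC16A5. The median log2 fold change of the 10 was -0.54 in clone 1 and -0.38 in clone 2.

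SLC16A10 (TAT1; ENSG00000112394, chr6:111087503-111231194 on the plus strand of GRCh38) carries tryptophan, tyrosine and phenylalanine, and thyroid hormones, across the membrane without sodium. The WT libraries held 5.29, 4.85 and 5.52 CPM of it, 581 counts in all, and the 6 knockout libraries held 0 counts. Against 3 counts over a group of libraries, clone 1 was at least 159.6-fold lower, and the deeper clone 2 libraries put the bound there at 210.5-fold. No library of either clone came near the WT libraries. The other strand held 3 counts over the 9 libraries, so counting without regard to strand left the call as it was.

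SLC16A9 (MCT9; chr10:59650764-59736002, minus strand), a carrier of creatine and carnitine, was at 0.704, 0.902 and 0.616 CPM in WT. Clone 1 had 0.0366, 0 and 0.0307 CPM, from 2 counts, and clone 2 had 0.145, 0.160 and 0.140. The groups did not overlap, and clone 2 lay between the others. The WT level was 34.6 times that of clone 1, with an exact 95% interval of 9.29 to 290.4 that covers counting error only. Against WT, clone 2 was lower by -2.30 ± 0.424 on the log2 scale (SE). SLC16A9 passed the low-count filter through its WT counts alone, so no p-value is given for this fall. Clone 2 exceeded clone 1 by 2.59 ± 0.865 (adjusted p = 0.0222), a difference that rests on those 2 counts and was not called by DESeq2 (adjusted p = 0.0633) or without clone 1 replicate 2 (2.04, adjusted p = 0.111).

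SLC16A6 (MCT7; chr17:68267026-68291267, minus strand), known from fish liver as an exporter of ketone bodies, was at 4.02, 4.19 and 3.14 CPM in WT. It had 1.13, 1.18 and 1.20 CPM in clone 1 and 0.655, 0.854 and 0.678 in clone 2. All 6 knockout libraries were below all WT libraries, and all clone 2 libraries were below all clone 1 libraries. The log2 change was -1.70 ± 0.184 in clone 1 (adjusted p = 3.53e-10) and -2.38 ± 0.189 in clone 2 (adjusted p = 7.59e-14). The clones differed by -0.69 ± 0.230 (adjusted p = 0.0223), a difference that missed the threshold when strand was ignored (-0.50, adjusted p = 0.0992) and without clone 1 replicate 2 or 3 or clone 2 replicate 1 or 3 (adjusted p = 0.0507 to 0.0737). ARSG, a sulfatase gene on the opposite strand that shares 144 exon bases with SLC16A6, was called lower as well, by -1.46 and -1.76.

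SLC16A14, a family member with few known substrates, was at 7.36, 6.92 and 8.87 CPM in WT, 3.29, 3.72 and 4.05 in clone 1, and 3.83, 4.83 and 4.21 in clone 2. The clones overlapped each other and neither overlapped WT. Its changes of -1.05 ± 0.126 (adjusted p = 4.11e-09) and -0.84 ± 0.119 (adjusted p = 2.19e-07) lay on either side of the fold threshold, and the clones did not differ by the test (0.21 ± 0.132, adjusted p = 0.274). The clone 1 value fell short of 1 without clone 1 replicate 1 (-0.98), without WT replicate 3 (-0.95) or when strand was ignored (-0.80).

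The lactate and pyruvate carriers moved less. SLC16A7 (MCT2) was at 22.2, 23.3 and 23.1 CPM in WT, 16.7, 16.4 and 15.1 in clone 1 and 13.8, 13.8 and 13.2 in clone 2, and the 3 ranges were separate. It fell by 0.51 and 0.75 on the log2 scale (adjusted p = 3.27e-08 and 1.96e-12), under the fold threshold. SLC16A1 (MCT1), the main lactate carrier of most cells, was at 144, 149 and 154 CPM in WT and 123, 130 and 128 in clone 1, a fall of 0.23 (adjusted p = 7.44e-07). In clone 2 its 145, 155 and 144 CPM overlapped WT (-0.01, adjusted p = 0.872), and the difference between the clones passed the test (0.22, adjusted p = 3.37e-06). SLC16A3 (MCT4) was at 94.5, 91.0 and 92.9 CPM in WT, at 77.4, 93.3 and 83.9 in clone 1 (-0.13, adjusted p = 0.0248) and at 94.8, 96.1 and 98.9 in clone 2 (0.06, adjusted p = 0.364). The clone 1 range of SLC16A3 overlapped WT, and its change did not pass with strand ignored (adjusted p = 0.0557) or without clone 1 replicate 1 or 3 or WT replicate 1 or 3 (adjusted p = 0.0680 to 0.235).

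SLC16A5 and SLC16A13 were low in all groups. SLC16A5 (MCT6) rose by 0.58 in clone 1 (adjusted p = 0.00219) and 0.49 in clone 2 (adjusted p = 0.00895), from 2.22 ± 0.0694 CPM to 3.31 ± 0.268 and 3.12 ± 0.323. SLC16A13 (MCT13) passed the test in clone 1 (-0.57, adjusted p = 0.0288) and not in clone 2 (0.03, adjusted p = 0.921), and the clones differed by 0.61 (adjusted p = 0.0255). Neither SLC16A13 value passed with DESeq2 (adjusted p = 0.0621 and 0.0558) or without clone 1 replicate 2 or 3. The clone 1 value also failed without WT replicate 2 (-0.40, adjusted p = 0.205), and the difference without clone 2 replicate 1 or 2. The clone 2 value of SLC16A5 did not pass without clone 2 replicate 1 (0.42, adjusted p = 0.0566). SLC16A4 (MCT5) passed the test in neither clone.

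Of the 7 SLC1 genes 3 were tested, and 2 of these fell in both clones. By adjusted p alone, 18.8% of all genes were lower in clone 1 and 16.1% in clone 2. SLC1A7 (EAAT5; chr1:53087179-53142638, minus strand), a glutamate transporter best known from the retina, was at 1.12, 1.17 and 1.08 CPM in WT. It had 0.146, 0.279 and 0.184 CPM in clone 1 and 0.315, 0.374 and 0.421 in clone 2, 18.1% and 32.9% of the WT mean. The 3 ranges were separate. The changes were -2.43 ± 0.362 (adjusted p = 4.96e-07) and -1.59 ± 0.307 (adjusted p = 5.68e-05), and the difference between the clones did not pass the test (0.84 ± 0.421, adjusted p = 0.151).

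SLC1A4 (ASCT1), a carrier of serine, alanine and cysteine, showed the firmest fall among the well expressed transporter genes without reaching the fold threshold. It was at 85.1, 82.2 and 86.0 CPM in WT, 48.3, 47.8 and 45.2 in clone 1 and 44.3, 46.8 and 45.5 in clone 2. Both clones lay far below WT and overlapped each other, at 55.8% and 53.9% of the WT mean. The changes were -0.84 ± 0.0416 (adjusted p = 1.47e-20) and -0.89 ± 0.0408 (adjusted p = 1.40e-21). Its relative SLC1A5 (ASCT2) was at 316, 304 and 305 CPM in WT, 312, 321 and 302 in clone 1, and 325, 324 and 335 in clone 2. SLC1A5 was at 0.01 ± 0.0345 in clone 1 (adjusted p = 0.789) and 0.09 ± 0.0344 in clone 2 (adjusted p = 0.0454), and the clone 2 value did not pass without a low-count filter (adjusted p = 0.120), with strand ignored (adjusted p = 0.0727), or without any 1 of the clone 2 libraries or WT replicate 2 or 3 (adjusted p = 0.0638 to 0.187).

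**Figure D3:**
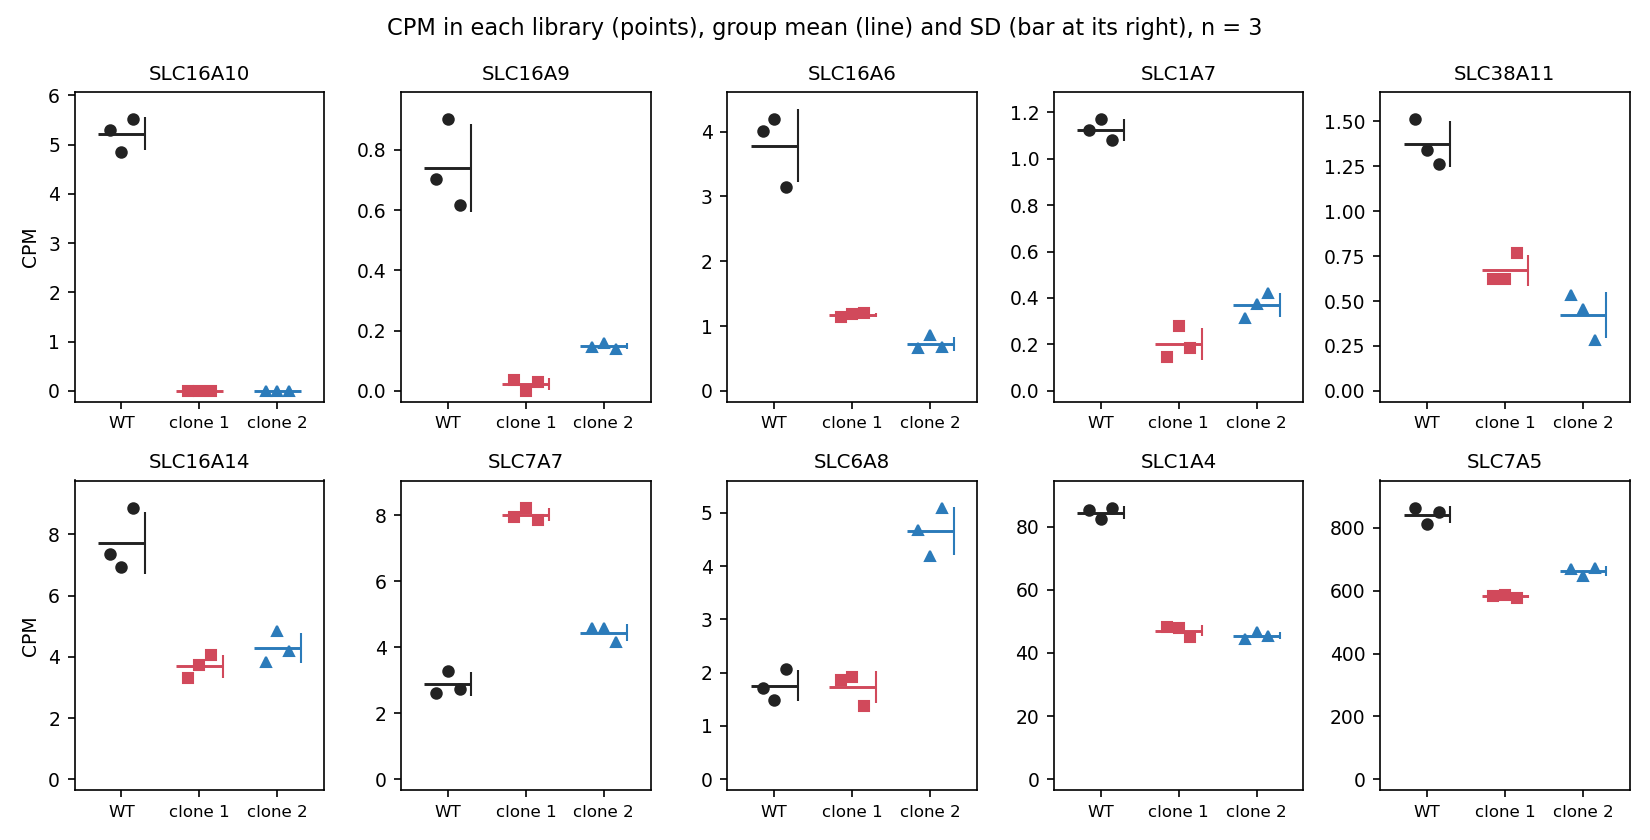
CPM of the 8 transporter genes called in at least 1 clone, and of SLC1A4 and SLC7A5, in each library, with the mean as a line and the SD as a bar (n = 3), on axes that start at 0. The knockout libraries of SLC16A10 are at 0, SLC7A7 is highest in clone 1 and SLC6A8 is highest in clone 2.

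Among the SLC3 heavy chains and their SLC7 light chains 5 of 10 genes were tested. SLC7A5 (LAT1) was at 864, 812 and 850 CPM in WT, 583, 586 and 577 in clone 1, and 669, 645 and 673 in clone 2. The 3 ranges were separate, with both clones below WT and clone 1 the lowest. SLC7A5 fell by 0.53 ± 0.0376 (adjusted p = 1.59e-15) and by 0.35 ± 0.0375 (adjusted p = 4.76e-10), and the clones differed by 0.19 ± 0.0375 (adjusted p = 0.000137). Copies of parts of SLC7A5 lie elsewhere on chromosome 16, and pairs that fitted both would have been left uncounted as multimapping.

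Its heavy chain SLC3A2 (CD98) did not move with it by the test. SLC3A2 was at 255, 245 and 254 CPM in WT, 256, 262 and 248 in clone 1 and 245, 251 and 255 in clone 2, 3 overlapping ranges (0.02 ± 0.0328, adjusted p = 0.663, and -0.00 ± 0.0327, adjusted p = 0.940). Per length, SLC7A5 stood at 4.49 ± 0.0461 times SLC3A2 in WT, 3.06 ± 0.0553 in clone 1 and 3.55 ± 0.111 in clone 2. Summed over this group of genes, the level was 242 ± 6.69 CPM per kb in WT, 192 ± 1.89 in clone 1 and 207 ± 3.17 in clone 2.

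SLC7A11 (xCT), which imports cystine for glutathione synthesis, was at 128, 128 and 132 CPM in WT, 153, 157 and 158 in clone 1 and 126, 127 and 124 in clone 2. It rose in clone 1 (0.27 ± 0.0314, adjusted p = 1.72e-09) and not by the test in clone 2 (-0.04 ± 0.0313, adjusted p = 0.358), and the difference between the clones passed (-0.31, adjusted p = 1.33e-10). SLC7A6 (y+LAT2), an exchanger of cationic for neutral amino acids, was at 93.1, 90.4 and 89.8 CPM in WT, 97.8, 92.3 and 93.7 in clone 1, and 118, 110 and 110 in clone 2. SLC7A6 rose in clone 2 (0.30, adjusted p = 3.04e-09) and did not pass in clone 1 (0.05, adjusted p = 0.270), though it did with strand ignored (0.15, adjusted p = 0.0119), and the clones differed by 0.25 (adjusted p = 5.21e-07). Its 3′ exons share 3372 bases with SLC7A6OS on the other strand, and 24.2% of its pairs lay on that strand.

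SLC7A7 (y+LAT1; chr14:22773222-22829820, minus strand), the light chain whose loss causes lysinuric protein intolerance, was the only transporter gene called higher in clone 1. It was at 2.61, 3.29 and 2.74 CPM in WT, 7.94, 8.23 and 7.85 in clone 1, and 4.58, 4.59 and 4.16 in clone 2, with no overlap between any of the groups. The changes were 1.47 ± 0.121 (adjusted p = 2.04e-13) and 0.62 ± 0.126 (adjusted p = 0.000119), and the clones differed by -0.85 ± 0.114 (adjusted p = 1.32e-07). The counted strand held 1601 pairs and the opposite strand 2534, and with strand ignored the change was 0.32 in clone 1 and -0.02 in clone 2. Of the cationic amino acid transporters only SLC7A1 (CAT1) was tested of 5 genes, at 339, 330 and 346 CPM in WT, 334, 323 and 326 in clone 1 and 393, 380 and 380 in clone 2. SLC7A1 rose in clone 2 (0.18 ± 0.0345, adjusted p = 3.76e-05), overlapped WT in clone 1 (-0.05, adjusted p = 0.332) and differed between the clones (0.23, adjusted p = 1.35e-06).

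Of the 11 SLC38 genes 9 were tested, with 4 lower and 1 higher in clone 1 by adjusted p and 2 lower in clone 2. Of all genes, 18.8% were lower and 17.4% higher in clone 1, and 16.1% were lower in clone 2. SLC38A11 (chr2:164894354-164955525, minus strand), a member with little known function, was called lower in both. It was at 1.51, 1.34 and 1.26 CPM in WT, 0.622, 0.621 and 0.767 in clone 1, and 0.533, 0.454 and 0.281 in clone 2, and no ranges overlapped. The changes were -1.03 ± 0.269 (adjusted p = 0.00203) and -1.70 ± 0.276 (adjusted p = 3.40e-06), and the clones did not differ by the test (-0.67 ± 0.316, adjusted p = 0.119). In clone 1 the change was under 1 in size without clone 1 replicate 1 (-0.98), clone 1 replicate 2 (-0.97) or WT replicate 1 (-0.95).

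SLC38A1 (SNAT1) fell slightly in both clones, from 554, 548 and 563 CPM in WT to 485, 478 and 486 in clone 1 and 472, 472 and 478 in clone 2 (-0.20 ± 0.0353, adjusted p = 1.16e-05, and -0.23 ± 0.0353, adjusted p = 1.52e-06). SLC38A2 (SNAT2), a carrier known to be induced by amino acid shortage, was at 129, 129 and 134 CPM in WT, 170, 175 and 173 in clone 1, and 130, 133 and 135 in clone 2. Only the clone 1 libraries of SLC38A2 stood apart, at 0.40 ± 0.0312 (adjusted p = 4.45e-14) against 0.02 ± 0.0312 (adjusted p = 0.727) in clone 2, a difference of -0.38 (adjusted p = 5.94e-13). SLC38A5 (SNAT5), another glutamine carrier, was at 76.3, 67.6 and 70.0 CPM in WT, 59.9, 58.1 and 59.1 in clone 1 and 75.5, 72.1 and 74.9 in clone 2. Clone 1 lay below both other groups (-0.27, adjusted p = 1.05e-06), clone 2 overlapped WT (0.06, adjusted p = 0.324, and 0.11 and just past the threshold without WT replicate 1), and SLC38A5 differed between the clones (0.33, adjusted p = 4.16e-08). SLC38A10 was at 71.7, 75.03 and 71.1 CPM in WT, 63.5, 64.5 and 65.0 in clone 1 (-0.18, adjusted p = 0.000277), and 70.3, 69.5 and 70.8 in clone 2 (-0.05, adjusted p = 0.354). SLC38A9, the lysosomal arginine sensor, the lysosomal glutamine carrier SLC38A7, SLC38A6 and SLC38A8 passed the test in neither clone. In clone 1, SLC38A7 passed without clone 1 replicate 1 (-0.22), and SLC38A6 without that library (0.23) or WT replicate 2 (0.23).

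Of the SLC36 carriers 2 of 4 were tested. SLC36A4 (PAT4) fell by 0.27 and 0.17 (adjusted p = 4.26e-05 and 0.00988), from 34.8 ± 1.34 CPM to 28.8 ± 0.419 and 31.0 ± 0.724. The lysosomal SLC36A1 (PAT1) passed in clone 2 alone (-0.29, adjusted p = 0.0130, beside -0.20, adjusted p = 0.0970, in clone 1), and the clones did not differ by the test (adjusted p = 0.548). The clone 2 value of SLC36A1 did not pass without clone 2 replicate 2 or WT replicate 3 (adjusted p = 0.0591 and 0.130), and the clone 1 value passed without WT replicate 1 (adjusted p = 0.0497). All 3 SLC43 genes were tested. SLC43A2 (LAT4), a carrier of branched-chain amino acids and phenylalanine, fell by 0.83 ± 0.177 (adjusted p = 0.000191) and 0.54 ± 0.164 (adjusted p = 0.00895), from 2.98 ± 0.427 CPM to 1.68 ± 0.0876 and 2.05 ± 0.358, and the clone 2 value did not pass without clone 2 replicate 1 or WT replicate 1 (adjusted p = 0.0786 and 0.0626). Its abundant relatives passed the test in neither clone: SLC43A1 (LAT3) was at 144, 135 and 134 CPM in WT, 139, 135 and 135 in clone 1 and 131, 129 and 133 in clone 2, and SLC43A3 at 203, 208 and 212, at 201, 225 and 207, and at 195, 203 and 207.

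Of the 19 SLC6 genes 4 were tested and 1 was called, higher in clone 2, where 1.83% of all genes were called higher. SLC6A8 (chrX:153687926-153696588, plus strand), the creatine transporter, was at 1.72, 1.49 and 2.06 CPM in WT, 1.87, 1.92 and 1.38 in clone 1, and 4.68, 4.19 and 5.10 in clone 2. Clone 1 overlapped WT and clone 2 lay above both. The change was -0.02 ± 0.186 in clone 1 (adjusted p = 0.950) and 1.42 ± 0.157 in clone 2 (adjusted p = 8.03e-10), and the clones differed by 1.44 ± 0.163 (adjusted p = 2.85e-09). The opposite strand held 1693 pairs against 920 on the counted strand, and with strand ignored the changes were 0.31 and 0.64, neither of them called. SLC6A8 also has near-identical copies elsewhere in the genome, so its count is uncertain. The taurine transporter SLC6A6, the serotonin transporter SLC6A4 and the GABA carrier SLC6A13 passed the test in neither clone.

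Strand set several of these values. More than 10% of the pairs lay on the opposite strand for 8 of the 37 tested genes, up to 97.7% for SLC16A4, which had 137 pairs on its own strand and 5757 on the other. SLC16A10, with 0.514% of its pairs on the opposite strand, had fitted values of -10.56 by strand and -8.50 without it in clone 1, where that clone had 1 opposite-strand pair. Neither value is a bound. When strand was ignored, SLC7A10, SLC38A4 and SLC16A11, with 0 to 3 counts on their own strand, were each called in a clone. SLC7A10 had 72 opposite-strand counts in WT, 6 in clone 1 and 1 in clone 2, and its exons share 201 bases with LRP3, a receptor gene that was itself lower by -2.75 and -3.94. SLC38A4, a carrier of neutral amino acids, had 49, 111 and 85 opposite-strand counts. SLC16A11 had 0 counts on its own strand and 28, 23 and 65 on the other.

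The authors' deposited table lists a log2 fold change of -5.45 for SLC7A10, where the unstranded mean change here was -5.60. For SLC7A7 the authors' deposited table gives 0.16 (adjusted p = 0.443), beside 1.04 on the counted strand and 0.15 with strand ignored. For SLC16A10 the authors' deposited table gives -9.46, for SLC16A6 -1.82, for SLC1A7 -1.96, for SLC38A11 -1.36 and for SLC16A9 -2.96, all in the direction found here.

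**Figure D4:**
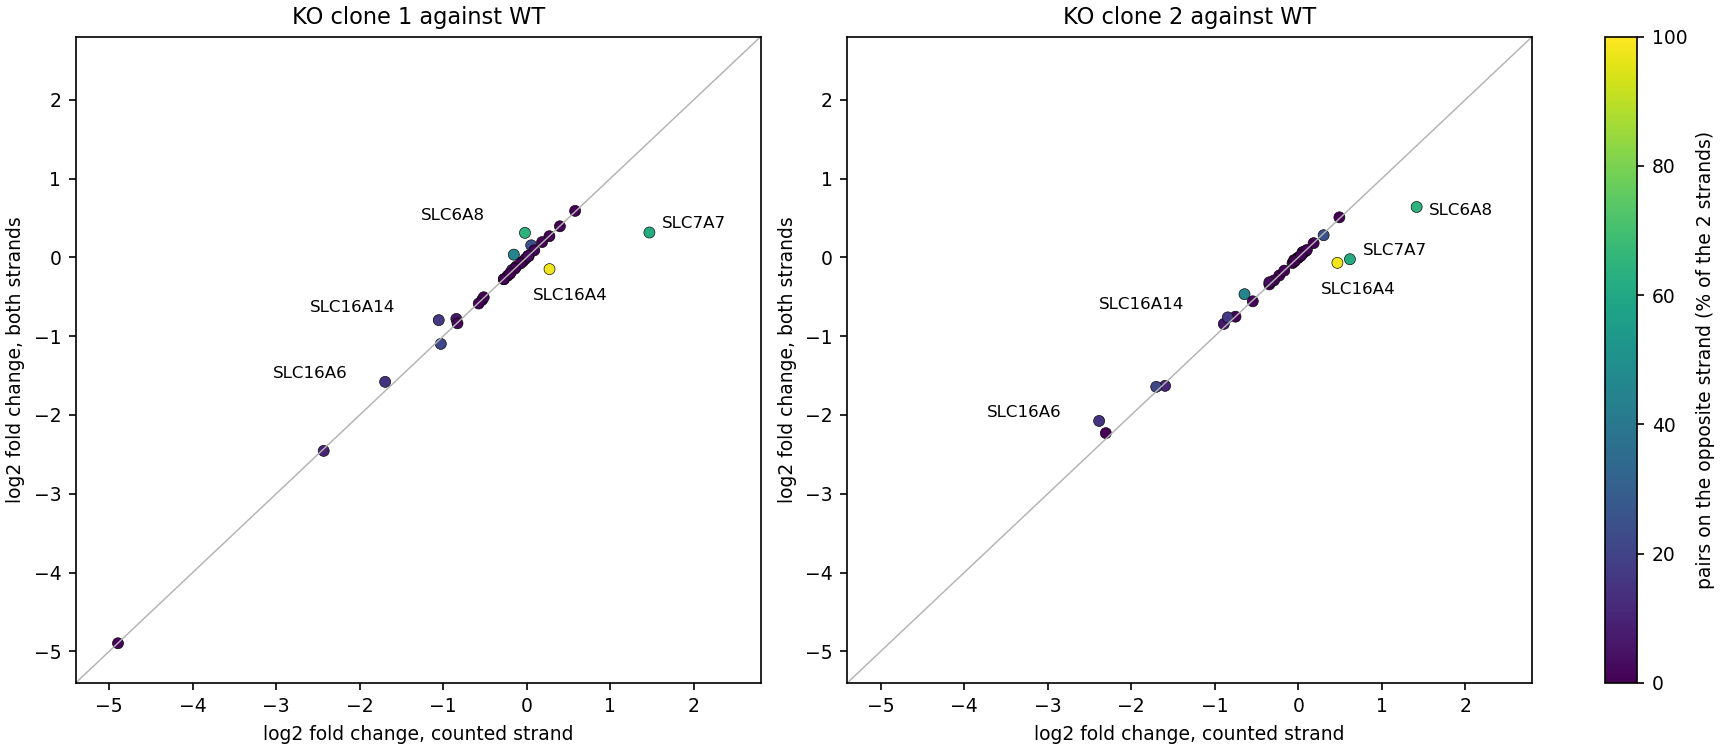
Log2 fold change against WT on the counted strand (horizontal) and with both strands counted (vertical) for the tested transporter genes in clone 1 (left) and clone 2 (right), coloured by the share of pairs on the opposite strand, with the diagonal as a line. SLC7A7 and SLC6A8, with 61.3% and 64.8% of pairs on the opposite strand, lie off the diagonal. SLC16A10 is left out because both clones had 0 counts, and SLC38A8 because it was not tested with strand ignored.

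The other 36 transporter genes had too few counts to test. In 9 of them no library held a count, among them the light chains SLC7A8 and SLC7A13, the cationic carriers SLC7A3 and SLC7A4 and the glycine transporter SLC6A5. Another 18 had 1 to 9 counts over the 9 libraries and 9 had 10 or more, and none exceeded 0.291 CPM in a library. The dopamine transporter SLC6A3 had 25 counts in WT, 2 in clone 1 and 3 in clone 2, and without the low-count filter it was called lower in both (-3.18, adjusted p = 0.0130, and -3.01, adjusted p = 0.0113).

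Promoter windows of 300 bases (250 before and 50 after a transcript start, from RefSeq, GRCh38.p14) were at hand for 30 of the 37 tested genes. They are shown for 4 of the genes called lower in both clones, SLC16A6 having no window, and for SLC1A4, which was chosen after its values were seen. SLC1A4 fell in both clones and holds an ATF4-type element, as does SLC38A1, which is not shown. Both strands were searched for the ATF4 composite element TGATGNAA, the E-box CACGTG and the antioxidant element TGACNNNGC, and matches are in capitals.
SLC16A10, chr6:111087253-111087552, plus strand: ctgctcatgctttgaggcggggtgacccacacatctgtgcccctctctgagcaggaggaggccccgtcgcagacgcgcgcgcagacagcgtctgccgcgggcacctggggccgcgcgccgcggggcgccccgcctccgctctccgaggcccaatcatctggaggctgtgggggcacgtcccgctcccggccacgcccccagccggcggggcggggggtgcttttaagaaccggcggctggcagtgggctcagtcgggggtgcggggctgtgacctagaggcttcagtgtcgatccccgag
SLC16A9, chr10:59710030-59710329, minus strand: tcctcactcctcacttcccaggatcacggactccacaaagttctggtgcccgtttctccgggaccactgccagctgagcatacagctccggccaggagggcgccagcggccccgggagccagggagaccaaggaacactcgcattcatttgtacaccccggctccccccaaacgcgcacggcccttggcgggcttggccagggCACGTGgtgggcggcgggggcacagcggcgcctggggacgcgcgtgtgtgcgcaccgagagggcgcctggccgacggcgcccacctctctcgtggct
SLC1A7, chr1:53142589-53142888, minus strand: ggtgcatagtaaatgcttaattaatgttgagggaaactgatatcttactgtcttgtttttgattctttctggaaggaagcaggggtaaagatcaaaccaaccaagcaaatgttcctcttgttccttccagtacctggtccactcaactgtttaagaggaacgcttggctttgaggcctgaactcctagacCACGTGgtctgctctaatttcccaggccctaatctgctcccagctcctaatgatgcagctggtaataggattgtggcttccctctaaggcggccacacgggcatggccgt
SLC38A11, chr2:164955476-164955775, minus strand: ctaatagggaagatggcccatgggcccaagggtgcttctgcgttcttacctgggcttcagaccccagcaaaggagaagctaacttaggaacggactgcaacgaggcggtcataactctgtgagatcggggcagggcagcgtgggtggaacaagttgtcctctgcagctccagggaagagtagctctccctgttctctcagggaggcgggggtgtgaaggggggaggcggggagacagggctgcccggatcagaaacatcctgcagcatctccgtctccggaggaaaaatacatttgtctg
SLC1A4, chr2:64989149-64989448, plus strand: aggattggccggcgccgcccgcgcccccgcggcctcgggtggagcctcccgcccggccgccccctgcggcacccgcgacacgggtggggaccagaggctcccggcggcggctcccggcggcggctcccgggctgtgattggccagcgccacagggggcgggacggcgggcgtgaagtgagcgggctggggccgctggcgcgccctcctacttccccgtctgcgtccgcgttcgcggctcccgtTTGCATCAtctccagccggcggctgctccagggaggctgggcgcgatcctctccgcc

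The windows had little in common. SLC16A10 and SLC16A9 held 32 and 28 CpG dinucleotides, SLC38A11 11 and SLC1A7 5, beside a median of 14 over 35116 windows of the genome. SLC16A10 and SLC38A11 held none of the 3 letter patterns, while the E-box occurred once in the SLC16A9 window shown and once in SLC1A7. SLC16A9 has another window in the table, chr10:59709801-59710100, with 29 CpG dinucleotides, no E-box and an antioxidant match, GCGCAGTCA, 19 bases before the start. The SLC1A4 window shown held TTGCATCA, the ATF4 pattern read on the other strand, 7 bases before the start. Another SLC1A4 window, chr2:64988229-64988528, held none of the 3 patterns. The ATF4 pattern occurred in 5 of 52 windows of tested transporter genes (9.62%), beside 3.62% of all windows. Of the genes with it, SLC1A4 and SLC38A1 were lower in both clones by the test, and SLC3A2, SLC7A1 and SLC1A5 in neither. The E-box was in 9 of the 52 (17.3%, beside 7.26%) and the antioxidant pattern in 7 (13.5%, beside 13.3%). A match is a string of letters and not a bound site.

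The nearest coding genes on either side of the lowered ones were read too. ARSG, which overlaps SLC16A6, was called lower in both clones. RPF2, GTF3C6, MFSD4B and REV3L, the nearest coding genes around SLC16A10, lay between -0.16 and 0.16 in both clones. Around SLC16A6, the autophagy gene WIPI1 was lower by -0.82 and -0.69, while AMZ2, KPNA2 and PRKAR1A lay between -0.27 and 0.13. Beside SLC38A11, COBLL1 was lower by -0.29 and -0.69 and the sodium channel gene SCN2A by -0.45 and -0.37, and SCN3A was higher by 0.68 and 0.21. CCDC6 near SLC16A9 was at 0.12 and 0.10, and SCP2, CPT2 and CZIB near SLC1A7 were between -0.23 and 0.17. PODN, GRB14, FAM13C, PHYHIPL and MRLN, the other nearest genes, had too few counts to test.

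Genes of amino acid metabolism outside these families were read from 11 fixed lists of 214 genes, chosen with earlier results of these data known. The counts below are by adjusted p alone and, unless a clone is named, for the mean of both clones against WT. For that mean, 18.9% of all genes were lower and 16.4% higher. Of 23 tested genes of the ATF4 response to amino acid shortage 9 were lower and 2 higher. Their median was -0.07 on the log2 scale, where that of all genes lay within 0.01 of 0. In clone 1, 10 were lower and 1 higher (median -0.20), and in clone 2, 5 were lower and 5 higher (median 0.04). Of all genes, 18.8% were lower and 17.4% higher in clone 1, and 16.1% and 14.4% in clone 2. PHGDH, the first enzyme of serine synthesis, was lower by -5.32 in clone 1 and -7.09 in clone 2, and TRIB3, an ATF4-induced pseudokinase, went from 12.6 ± 0.378 CPM to 5.26 ± 0.307 and 6.39 ± 0.608. STC2, a secreted glycoprotein of the stress response, was at 0.913, 1.15 and 1.14 CPM in WT, 0.146, 0.0621 and 0.0920 in clone 1, and 0.218, 0.640 and 0.397 in clone 2. STC2 would not have passed the low-count filter without its WT counts. Its place among the 9 lower genes is therefore not independent of the filter. SHMT2, the mitochondrial serine hydroxymethyltransferase, fell by 0.35 in each clone.

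Amino acid sensing by mTORC1, the kinase complex that SLC38A9 and leucine import feed, had 12 of 35 tested genes higher and 5 lower, with a median of 0.03. RRAGD, one of the Rag GTPases that bring mTORC1 to the lysosome, was at 40.1, 42.2 and 43.6 CPM in WT, 5.34, 5.87 and 5.68 in clone 1 and 17.1, 15.8 and 15.3 in clone 2. The 3 ranges were separate and the changes were -2.90 ± 0.0735 (adjusted p = 1.40e-30) and -1.39 ± 0.0620 (adjusted p = 6.68e-22). SESN3, a sestrin that restrains mTORC1, went the other way, from 18.1, 18.4 and 19.0 CPM to 31.9, 32.2 and 33.3 and to 39.6, 40.7 and 42.0. LAMTOR1 and NPRL3 rose by 0.33 and 0.34 in the mean contrast.

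Among 16 tested mitochondrial and lysosomal amino acid carriers 7 were lower and 0 higher, with a median of -0.13. SLC25A29, a mitochondrial carrier of basic amino acids, had 20.9, 19.8 and 19.3 CPM in WT, 2.20, 1.89 and 2.06 in clone 1 and 10.6, 10.4 and 10.6 in clone 2. Its changes were -3.29 ± 0.102 (adjusted p = 1.64e-27) and -0.93 ± 0.0783 (adjusted p = 4.81e-13), and the groups did not overlap. The mitochondrial branched-chain amino acid carrier SLC25A44, the lysosomal SLC15A4 and the glutamate carrier SLC25A22 were at -0.32, -0.35 and -0.24 in the mean contrast.

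Lists of SLC16 partner proteins and of lactate, pyruvate and thyroid hormone genes were read as well. Of the 3 tested partner proteins only BSG (basigin), the chaperone of MCT1 and MCT4, passed, at -0.08 (adjusted p = 0.0322), with -0.20 in clone 1 and 0.04 in clone 2. Of 20 tested lactate and pyruvate genes 9 were lower and 3 higher, with a median of -0.06 and 0 called for that mean. In clone 1 alone the malic enzyme gene ME1 was called higher, by 1.15 ± 0.329 (adjusted p = 0.00477), and it is named after its value was seen. Lactate dehydrogenase LDHA fell by 0.39 and 0.20 in the 2 clones, and PDHA1, a subunit of pyruvate dehydrogenase, rose by 0.19 and 0.24. Of 9 tested genes of thyroid hormone transport, activation and response 4 were lower and 0 higher, with a median of -0.10. The thyroid hormone receptor THRA was at 12.3, 10.1 and 11.2 CPM in WT, 5.75, 6.18 and 7.15 in clone 1, and 6.21, 5.95 and 5.77 in clone 2. Its target KLF9 went from 6.70 ± 0.424 CPM to 4.46 ± 0.482 and 3.55 ± 0.283, and the carrier SLCO4A1 was at -0.37 in the mean contrast.

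**Figure D5:**
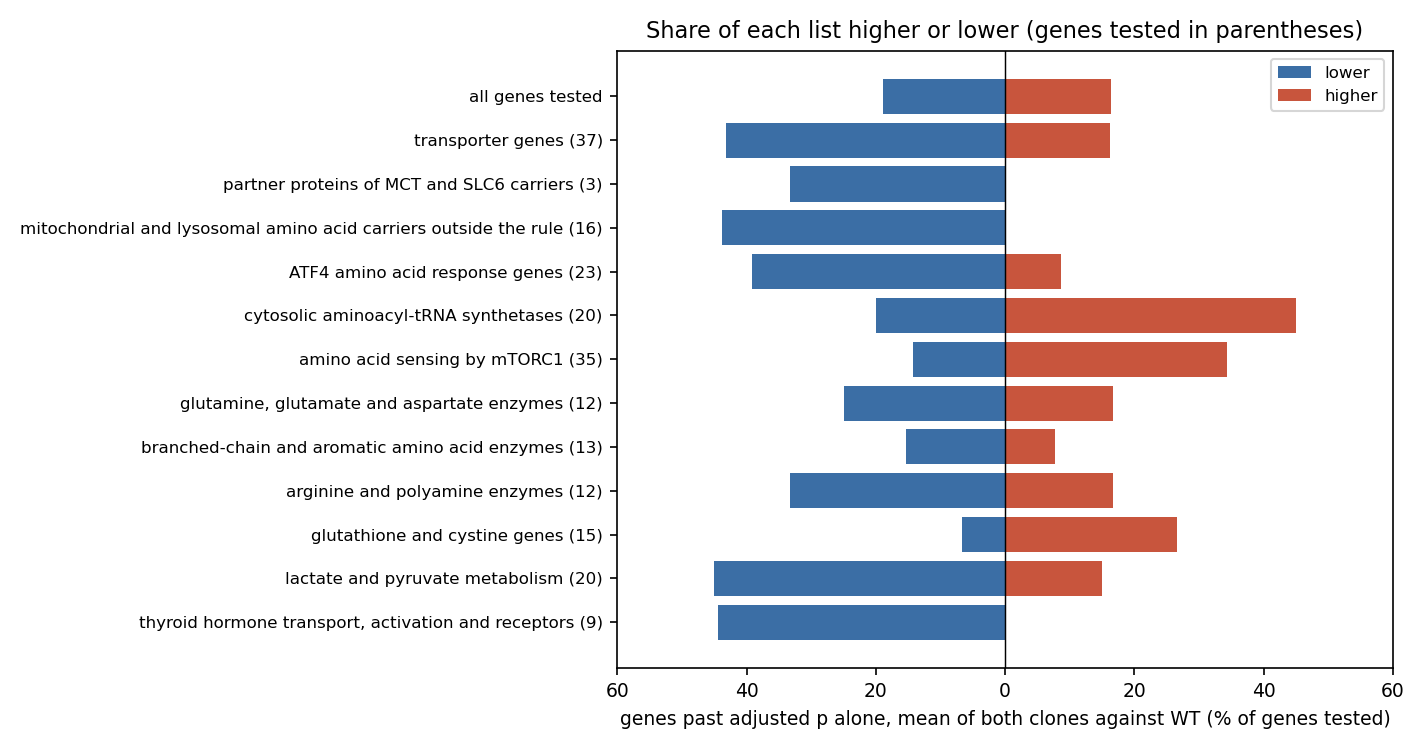
Share of tested genes that were lower (left) or higher (right) by adjusted p alone, both clones averaged and set against WT, in percent, for all genes, the 37 transporter genes and 11 lists, with the number of genes tested in parentheses. The transporter genes had 43.2% lower and 16.2% higher, beside 18.9% and 16.4% of all genes, and the aminoacyl-tRNA synthetases had more genes higher than lower.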

How the data were processed

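RNA-seq of KG-1a cells gave 9 libraries, 3 per group. Per the labels, total RNA was extracted with TRIzol and sequenced in pairs. Read pairs were aligned to GRCh38 with STAR in two-pass mode, per the series' design text, and the authors deposited gene counts for each library in 3 countings: both strands, and each strand alone. The annotation release the authors counted with is not given in the sources used here. The authors' deposited table gives log2 fold changes and adjusted p-values, made with DESeq2 per the submitters' processing notes. Its other 18 columns of per-sample values were not used.

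Members were taken by gene symbol. Values of some genes are not reported here. Members and gene lists were chosen with earlier results of these data known. The main test was edgeR 4.0.16 (R 4.3.3, limma 3.58.1) on counts of 1 strand (column 4 of the counting): TMM scaling, filterByExpr by group, robust quasi-likelihood F test with 1 coefficient per group over all 9 libraries, Benjamini-Hochberg adjustment over 20655 genes. SE is the log2 fold change over the square root of F. CPM are edgeR's, from those counts. Positions and exon lengths come from GENCODE release 44. A gene was given with full values when called in any contrast or among the 15 highest in WT per length, and up to 4 genes per list by smallest adjusted p. The 15 alternatives were DESeq2 1.42.0, other size factors, no filter, unstranded counts, only the groups compared, a replicate block, and leaving out each of 9 libraries. Rows that name no gene (unmapped, multimapping, no feature, ambiguous) held 70.4% to 74.1% of pairs and stayed out. Intervals cover counting error only.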

Additional observations from a re-analysis of the deposited data

Results flagged for a closer look

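The difference between the clones passed the test and the fold threshold for 2 transporter genes. SLC6A8 exceeded clone 1 in clone 2 by 1.44 on the log2 scale (adjusted p = 2.85e-09 in edgeR), with all 3 clone 2 libraries above all 3 clone 1 libraries. With strand ignored the difference was 0.33 and not called, and 64.8% of the pairs lay on the opposite strand. SLC16A9 exceeded clone 1 in clone 2 by 2.59 (adjusted p = 0.0222), from 2 counts over the clone 1 libraries.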

How the results depend on the processing

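Counts of called transporter genes stayed within 1.5 times for each clone against WT and for their mean under every alternative run. Between the clones, 2 became 1 with strand ignored (SLC6A8 lost), with only the groups compared, with DESeq2 and without KO clone 1 replicate 2 (SLC16A9 lost each time, untested in the fit of only the groups compared). Leaving out 1 library gave 5 to 7 calls in clone 1, 6 in clone 2, 5 to 7 for the mean and 1 to 2 between the clones. Without KO clone 1 replicate 1, the library that stands apart, the clone 1 count was 5, SLC16A14 and SLC38A11 being just under the fold threshold. SLC7A7 lost its call in the mean contrast without WT replicate 1 (0.97), and SLC16A14 gained one without WT replicate 2 (-1.02). With strand ignored, SLC7A7 in clone 2 was at -0.024 and SLC6A8 in clone 1 at 0.31, the opposite sign from the counted strand. Over the 37 tested genes, 4 contrasts and 15 alternatives, 2155 other values stayed on their side of the adjusted p threshold, 46 no longer passed it and 8 newly passed it.

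Same-numbered libraries did not deviate together over all tested genes (correlations -0.0137 to 0.0122), so no pairing by number was seen. All genes weighed alike in this check, which could miss a pairing that moved only some of them. The replicate block gave 7, 6, 6 and 2 calls, as without it. Depth limits the genes at a few counts: SLC16A9 in clone 1 and the 36 untested genes. The calls rest on 3 libraries a group and 1 clone a line, and the effect of PRMT2 and of cloning cannot be told apart.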

Other observations

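Enzymes that use the transported amino acids were read for the mean of both clones against WT, unless a clone is named, by adjusted p alone. For that mean, 18.9% of all genes were lower and 16.4% higher. The shares were 18.8% and 17.4% in clone 1, and 16.1% and 14.4% in clone 2. Several counts below lie near these shares. Of 20 tested cytosolic aminoacyl-tRNA synthetases, which load amino acids onto tRNA, 9 were higher and 4 lower, with 0 called and a median log2 fold change of 0.05. In clone 1 the counts were 6 higher and 5 lower, and in clone 2 they were 11 and 2. LARS1, AARS1 and RARS1, for leucine, alanine and arginine, rose by 0.25, 0.21 and 0.19, and WARS1, for tryptophan, went from 110, 107 and 118 CPM to 70.2, 69.9 and 69.8 in clone 1 and 96.9, 97.2 and 91.3 in clone 2. Of 12 tested glutamine, glutamate and aspartate enzymes 3 were lower and 2 higher, with a median of -0.03. Glutamine synthetase GLUL had 485, 476 and 483 CPM in WT, 289, 277 and 280 in clone 1 and 342, 344 and 350 in clone 2, 3 separate ranges. The alanine transaminase GPT2 fell by 0.55 and 0.20 and CAD, of pyrimidine synthesis, rose by 0.15 in the mean contrast.

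Of 15 tested glutathione and cystine genes 4 were higher and 1 lower, with a median of 0.03, beside 16.4% and 18.9% of all genes. Haem oxygenase HMOX1 rose by 1.13 and 1.05, from 11.7 ± 0.205 CPM to 25.5 ± 0.638 and 24.2 ± 1.39. Glutaredoxin GLRX fell by 0.99 and 1.28, NQO1 was at 0.51 and TXNRD1 at 0.13 in the mean contrast. Of 13 tested branched-chain and aromatic enzymes 2 were lower and 1 higher, with a median of -0.05. Clone 1 had 6 lower and 2 higher, beside 18.8% and 17.4% of all genes. Clone 2 had 1 lower and 1 higher, beside 16.1% and 14.4%. The phenylalanine oxidase IL4I1, called lower in clone 1 (-1.26), was at 8.32, 7.07 and 7.76 CPM in WT, 2.67, 3.60 and 3.31 in clone 1 and 5.09, 5.90 and 5.05 in clone 2. DLD was at 0.14 and BCKDK at -0.15. Of 12 tested arginine and polyamine genes 4 were lower and 2 higher, with a median of -0.03, among them AMD1 at -0.20, SAT1 at 0.41, OAT at -0.23 and SRM at -0.18. In this list clone 1 had 5 lower and 1 higher, and clone 2 had 2 lower and 2 higher.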
